A study of Mus musculus with 4 samples.

Results

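Conventional natural killer (NK) cells were picked out of MC38b mouse tumours by their transcripts, 1 cell barcode at a time. A barcode counted as one if it carried at least 2 unique molecular identifiers (UMIs, single counted transcripts) of Ncr1 and Klrb1c together, which encode the NK receptors NKp46 and NK1.1. It also had no UMI of Cd3d or Cd3e (T cells) or of Itga1 or Cxcr6 (tissue-resident, ILC1-type cells), under 3 of Mki67 and Top2a together (cycling cells), and at most 2 of the C1q genes together and 2 of Lyz2 (macrophages). With at least 1000 UMIs, 500 genes and under 10% mitochondrial UMIs, 32779 of 37588 barcodes passed, and 2624 of these were conventional NK cells. Of these, PBS 1 gave 447, PBS 2 gave 445, anti-PD-1 gave 780 and anti-PD-1 plus anti-TL1A, called the combination here, gave 952. Because measured values chose the members, the genes of the rule are described and not tested.

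NK cells are innate lymphocytes that kill stressed or transformed cells without a rearranged antigen receptor. Whether a cell is spared or killed depends on the balance between inhibitory and activating receptors. Many but not all members of the Ly49 (Klra) family are inhibitory and read MHC class I, while NKp46 and NKG2D are activating. Killing uses perforin, which opens the target's membrane to granzymes, and conventional NK cells depend on the transcription factors Eomes and T-bet, whereas ILC1-type cells carry the residency molecules CD49a and CXCR6.

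The tumours had been engrafted in mice that received 2 doses of saline (PBS), of an antibody against PD-1, an inhibitory receptor of lymphocytes, or of that antibody with one against TL1A, a TNF-family cytokine, and were taken 24 hours after the second dose. By the series title, the question was what anti-TL1A adds to anti-PD-1. The labels name the tumour as MC38b; strain, sex, age and genotype of the mice are not given in the sources used here, and no group of anti-TL1A alone was analysed here. The design text gives 2 saline and 4 treated animals, pooled before sorting, and does not say whether each PBS library is 1 animal. The sort took CD45+CD3+, CD45+CD3- and CD45-CD3- cells, which were put together again 9:9:2, with 20000 loaded per condition, so the sort sets how many NK cells could be found. Each treated arm is 1 library. Every p-value here therefore rests on the spread between the PBS libraries, which may be technical, and both comparisons with PBS share those controls.

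The members held 2777442 and 3184815 UMIs in PBS 1 and PBS 2, 3383514 with anti-PD-1 and 5248816 with the combination. Their median depth was 5363, 6238, 3515.5 and 4825 UMIs per barcode in the same order, so the anti-PD-1 library was the shallowest and PBS 2 the deepest. The libraries share barcode sequences (1778 between PBS 2 and anti-PD-1 over all barcodes, 1255 between PBS 1 and anti-PD-1, 673 between the PBS pair and at most 39 in pairs with the combination), but only 4, 6, 5 and 5 members carried a barcode also found in another library. Over the members the PBS sums differed beyond the noise of counting UMIs (chi-square per degree of freedom 3.70), so the libraries were not repeat deposits. That value takes UMIs as independent, so the sampling of cells may have a part in it.

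Markers that the rule did not use stood as the name of these cells asks. Klre1, an NK receptor of the lectin-like type, stood at 583, 630, 563 and 616 CPM (UMIs relative to the library's total over the members, scaled with the TMM factors of edgeR); 4 values in a row always stand for PBS 1, PBS 2, anti-PD-1 and the combination in this order. Eomes stood at 228, 265, 237 and 257 CPM and Klra8, which encodes the Ly49H receptor, at 477, 563, 540 and 553 CPM. In C1q-positive macrophages of the same libraries, at median depths of 8959.5 to 20193 UMIs, at most 0.541% of barcodes had a UMI of Eomes and at most 0.687% one of Klra8, against 50% to 71.2% and 48.1% to 60.7% of the NK barcodes. Of markers of other cell types, as CPM without TMM scaling, 7 further T cell markers summed to 40.7, 37.4, 39.9 and 49.5, 7 macrophage markers to 94.3, 122, 103 and 108, 6 dendritic cell markers to 48.6, 61.2, 61.8 and 74.5, and 5 B cell markers to 9.36, 18.2, 20.1 and 30.1. The 3 endothelial markers summed to 121, 143, 115 and 139, although 2, 1, 0 and 1 of them had no UMI. In PBS 1 all 336 endothelial UMIs thus came from a single marker. At least 2 endothelial UMIs were found in 10.9% to 22.5% of members. The T cell, dendritic and B cell sums were highest with the combination. Members without UMIs of Cd3g, Cd4, Cd8a, Cd8b1 and Trac gave 191 calls for anti-PD-1 and 58 for the combination in the test described later. Over all members there were 169 and 46 (138 and 39 shared). The part of dendritic cell RNA was not tested. Members just inside the rule, with 2 UMIs of Ncr1 and Klrb1c, had Klre1 UMIs in 77.3% to 87.2% of barcodes, and barcodes just outside it, with 1, in 69.3% to 86.4%. With 3 UMIs the range was 85.4% to 94.5%. The edge of the rule thus ran through NK barcodes of lower depth.

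Chemokine and granzyme genes were among those that varied most between the members of a library. Barcodes were thinned to 1000 UMIs, and genes were ranked by the lowest variance-to-mean ratio of the 4 libraries, where counting noise alone gives a ratio close to that of the median gene, 1.01. Ccl5, a chemokine that draws T cells, led 2939 ranked genes with a lowest ratio of 5.85, ahead of Gzmc at 5.65 and Gzma at 5.05, both granule proteases. The chemokines Ccl4 (3.85), Xcl1 (2.49) and Ccl3 (2.02) and the protease gene Gzmb (2.57) followed among the first 15, with Malat1, Spp1, Tmsb4x, Kcnq5, Gm42418, Actb, Emb and Bcl2. Gzmc was found in few barcodes (390 of 447 members of PBS 1 had none), and its mean was 0.0787 to 0.556 UMIs, while that of Gzma was 7.93 to 12.0. The Ly49 repertoire varied too. Of 11 Ly49 genes, the median barcode had UMIs of 2, 3, 2 and 3 in the 4 libraries and the richest had 6, while 9.84%, 8.99%, 11.2% and 8.72% had none. After thinning to 1000 UMIs the barcodes with none were 29.5%, 25.6%, 25.3% and 22.5%, so fewer Ly49 genes are seen at low depth. Near-identical family members limit these calls: Klra9 shares 70.2%, Klra3 64.0%, Klra7 46.6% and Klra8 44.5% of the 31-base stretches in its last 500 bases with other genes.

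Of CD3-negative immune barcodes, conventional NK cells were 19.8% in PBS 1 (exact Clopper-Pearson 95% interval 18.2 to 21.5) and 23.8% in PBS 2 (21.9 to 25.8). They were 21.0% with anti-PD-1 (19.7 to 22.4) and 27.8% with the combination (26.3 to 29.3). These intervals cover counting error only, and the SD of the PBS pair was 2.84 percentage points. The anti-PD-1 value lay between the PBS values and the combination value above both. Since a deeper barcode reaches 2 UMIs more easily, the rule was also applied with every barcode thinned to 3000 UMIs, which gave 20.5%, 22.1%, 18.8% and 25.4%. With barcodes thinned to 1000 UMIs and 1 UMI of Ncr1 or Klrb1c asked, the shares were 16.6%, 17.9%, 19.0% and 19.2%, and the combination was no longer apart from anti-PD-1. Among non-cycling NK barcodes at 3000 UMIs, the conventional ones were 79.0% and 79.9% in the PBS pair, 73.5% with anti-PD-1 and 80.2% with the combination. With the rule as given they were 60.7% and 69.2% in the PBS pair, 65.7% with anti-PD-1 and 68.6% with the combination. The anti-PD-1 value then lay between the PBS values. With 1 library per treated arm no test of a share was made.

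**Figure D1:**
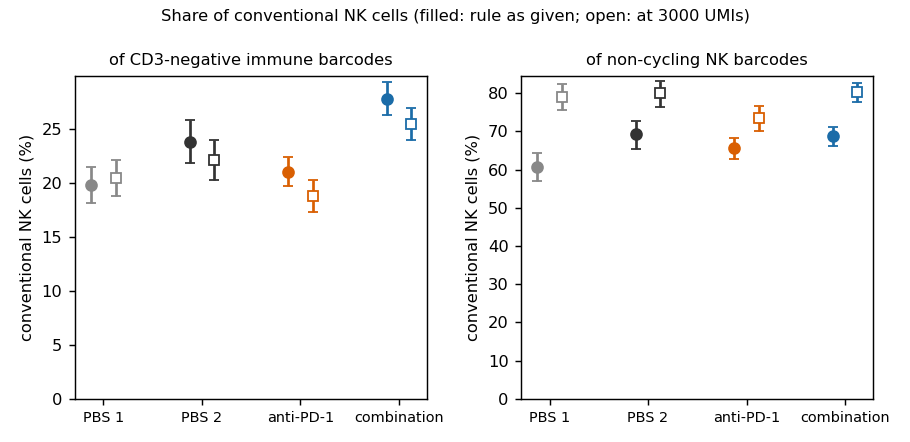
Conventional NK cells as a percentage of CD3-negative immune barcodes (left) and of non-cycling NK barcodes (right) in the 4 libraries, with exact 95% intervals for counting error. Filled circles apply the rule as given and open squares apply it with barcodes thinned to 3000 UMIs. The combination is highest on the left in both forms, at 27.8% and 25.4%.

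UMIs were summed over the members of each library, and 11483 genes were tested with edgeR's quasi-likelihood test. Of all of them 1.47% (169 genes) passed an adjusted p of 0.05 between anti-PD-1 and PBS, 138 higher (1.2%) and 31 lower (0.27%). Between combination and PBS 0.401% (46 genes) passed, 35 higher (0.305%) and 11 lower (0.0958%). The calls depend on the settings: DESeq2 made 10 (0.0871%) and 3 (0.0261%), and a rule of 1 UMI of Ncr1 or Klrb1c left 4 and 2. In what follows a gene rose or fell only where it passed the edgeR test over all 11483 genes.

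The core killing genes did not pass against PBS. Prf1, which encodes perforin, stood at 579, 646, 870 and 691 CPM. Gzma, the most abundant granzyme gene here, stood at 6459, 6801, 10019 and 7786 CPM. Gzmb, the granzyme gene best known for inducing apoptosis, stood at 1513, 1237, 1403 and 1827 CPM. Prf1 and Gzma were higher under anti-PD-1 than in both PBS libraries, by 0.51 ± 0.20 and 0.60 ± 0.37 (log2 fold change ± SE, adjusted p 0.239 and 0.591). Of 22 cytotoxic granule and death-ligand genes tested, 3 rose under anti-PD-1 (Gzme, Gzmf and Ctsd, the last encoding the lysosomal protease cathepsin D) and 2 in the combination (Gzme and Gzmf). The median log2 fold change of the list was 0.30 and 0.18, beside -0.01 over all genes in both comparisons. Ctsd stood at 216 and 177 CPM in the PBS pair, 311 with anti-PD-1 and 220 with the combination, a rise of 0.66 ± 0.15 (adjusted p 0.00382) in the anti-PD-1 library.

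Secreted signals did not pass either. Ifng, the gene of interferon-gamma, stood at 245, 207, 245 and 227 CPM, with neither treated library apart from the PBS pair. Ccl5 stood at 5508, 4794, 7400 and 6739 CPM, above the PBS range in both treated libraries without passing the test (adjusted p 0.636 and 0.98). None of 15 cytokine and chemokine genes made by NK cells passed in either comparison. The same held for 22 genes of the interferon-gamma response, with medians of -0.11 and 0.01.

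Identity and receptors showed the same picture. Tbx21, which encodes T-bet, stood at 227, 247, 271 and 248 CPM, and 0 of 19 NK transcription factor genes passed under anti-PD-1. In the combination 1 of 19 rose, Klf2, a factor that controls lymphocyte exit and quiescence, from 337 and 275 CPM to 475 CPM (0.64 ± 0.16, adjusted p 0.0258), while its anti-PD-1 value, 309 CPM, lay between the PBS values. At 3000 UMIs per barcode its change was 0.62 (adjusted p 0.114). Klrk1, which encodes NKG2D, stood at 483, 479, 444 and 549 CPM, and none of 20 Ly49 and NKG2 receptor genes passed in either comparison. Other activating receptors and adaptors (20 genes), homing and adhesion receptors (20), and cytokine and TNF-family receptors (21) likewise had 0 passing genes against PBS. Unadjusted p-values fell under 0.05 for 1261 of all genes under anti-PD-1 and for 756 in the combination. Stage markers did not pass either: Klrg1 (34.9, 36.7, 48.0 and 40.4 CPM), Cd27 (39.3, 40.9, 31.1 and 45.5 CPM) and Itgam, the gene of CD11b (103, 116, 95.6 and 133 CPM).

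**Figure D2:**
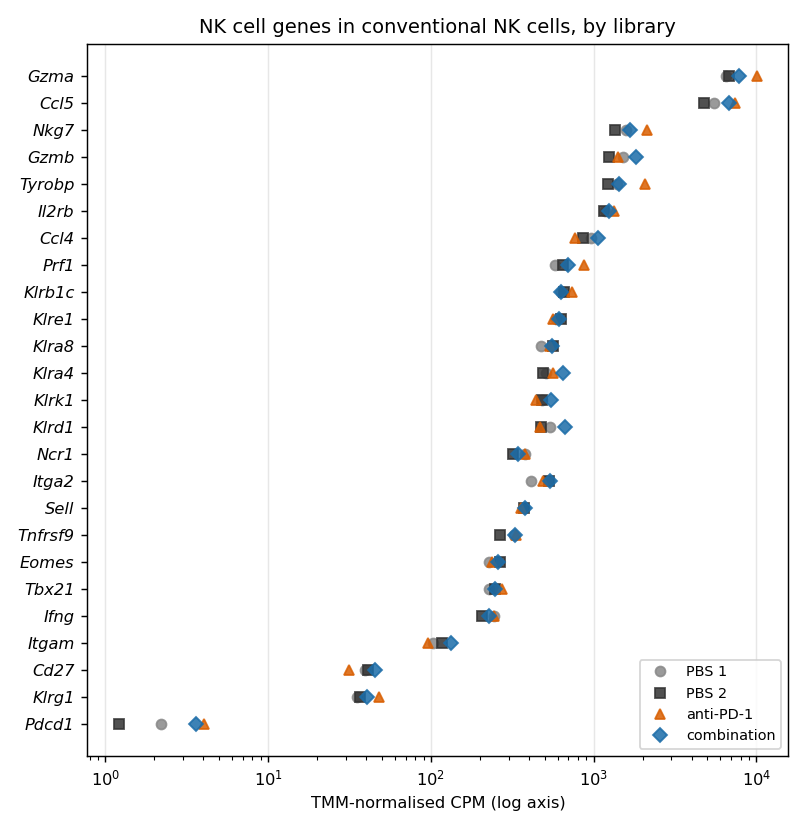
TMM-normalised CPM (log axis) of 25 NK cell genes summed over conventional NK cells, with 1 point per library. The 4 points of a gene mostly lie close together, as for Eomes (228, 265, 237 and 257 CPM). No error bar is drawn because each point is 1 library.

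Transcripts of PD-1, the target of 1 antibody, and of the receptor that TL1A binds were scarce in these cells. Tnfrsf25, which encodes the TL1A receptor DR3, had 1, 0, 2 and 1 UMIs in the members, too few to test. The 0 of 445 barcodes in PBS 2 allows a share of up to 0.674% with a UMI. Pdcd1, which encodes PD-1, had 6, 4, 13 and 19 UMIs, or 2.18, 1.21, 4.05 and 3.59 CPM. Its UMIs lay in 0.895%, 0.674%, 1.15% and 1.16% of NK barcodes, and in 0.344% to 1.67% of C1q-positive macrophages, which are deeper, so these shares cannot be set side by side directly. As CPM without TMM scaling, Pdcd1 was 2.16, 1.26, 3.84 and 3.62 in conventional NK cells, 0.973, 0.152, 1.79 and 0.334 in the macrophages (8, 1, 9 and 2 UMIs) and 140 to 200.3 in CD8 T cells. It was higher in NK cells than in macrophages in each library and far below CD8 T cells. Other checkpoint genes were seen better. Lag3, the gene of an inhibitory receptor that binds MHC class II, had 6.18 and 4.85 CPM in the PBS pair, 15 with anti-PD-1 and 14.3 with the combination. It rose by 1.44 ± 0.39 and 1.38 ± 0.36 (adjusted p 0.0203 and 0.0385), but not where the rule was applied at 3000 UMIs (0.55 and 0.56, adjusted p 0.817 and 0.995). Ctla4, the gene of the inhibitory receptor CTLA-4, rose in the combination, from 46.6 and 41.8 CPM to 72.1 CPM (0.71 ± 0.18, adjusted p 0.0259). Under anti-PD-1 it stood at 63.2 CPM (0.52 ± 0.19, adjusted p 0.184), and at 3000 UMIs the combination change was 0.82 (adjusted p 0.187). Of 15 inhibitory and checkpoint genes tested, 1 and 2 rose.

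Large rises under anti-PD-1 with low p-values were seen in 3 neighbouring genes of chromosome 7, Ifitm1, Ifitm2 and Ifitm3, which encode small membrane proteins known to block virus entry and to be induced by interferons. Ifitm2 stood at 22.6, 16.1, 121 and 72.7 CPM. Ifitm3 stood at 20.7, 19.4, 112 and 42.8 CPM, and Ifitm1 at 5.09, 5.46, 35.8 and 12.5 CPM. Each gene was highest under anti-PD-1 and higher in the combination than in both PBS libraries. The rises under anti-PD-1 were 2.66 ± 0.19, 2.49 ± 0.20 and 2.75 ± 0.32 for Ifitm2, Ifitm3 and Ifitm1 (adjusted p 6.17e-38, 1.18e-31 and 3.01e-14), and DESeq2 called all 3 (adjusted p 7.18e-08, 1.14e-06 and 0.0353). In the combination Ifitm2 rose by 1.93 ± 0.20 (adjusted p 6.76e-19) and Ifitm3 by 1.10 ± 0.21 (adjusted p 0.000215), and Ifitm1 did not pass (1.23 ± 0.35, adjusted p 0.0817). Part of their last 500 bases is shared with other genes (51.5%, 28.3% and 26.6% for Ifitm2, Ifitm3 and Ifitm1), so the split between them is uncertain. Ifitm1 and Ifitm3 were named after their values were seen.

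The promoters of these genes are shown because the 3 moved together. They are the 250 bases before the RefSeq start site (GRCm38.p6), 5′ to 3′ on the gene's strand, at chr7:140967826-140968075 (plus strand) for Ifitm1, chr7:140955962-140956211 (minus) for Ifitm2 and chr7:141010745-141010994 (minus) for Ifitm3. Capitals mark matches on either strand to a pair of GAAA with any 2 bases between them, the core of the interferon-stimulated response element. TTCNNNGAA, the core of the STAT site, was also searched and is in none of the 3.
Ifitm1: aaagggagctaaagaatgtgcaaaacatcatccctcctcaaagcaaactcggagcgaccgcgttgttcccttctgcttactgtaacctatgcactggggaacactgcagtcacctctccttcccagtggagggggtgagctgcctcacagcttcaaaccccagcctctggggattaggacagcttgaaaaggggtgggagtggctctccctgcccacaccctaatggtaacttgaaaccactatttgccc
Ifitm2: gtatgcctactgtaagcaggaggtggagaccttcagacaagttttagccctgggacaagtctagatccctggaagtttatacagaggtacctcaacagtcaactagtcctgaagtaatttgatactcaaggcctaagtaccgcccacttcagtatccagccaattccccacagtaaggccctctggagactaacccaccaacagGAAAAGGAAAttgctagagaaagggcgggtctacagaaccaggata
Ifitm3: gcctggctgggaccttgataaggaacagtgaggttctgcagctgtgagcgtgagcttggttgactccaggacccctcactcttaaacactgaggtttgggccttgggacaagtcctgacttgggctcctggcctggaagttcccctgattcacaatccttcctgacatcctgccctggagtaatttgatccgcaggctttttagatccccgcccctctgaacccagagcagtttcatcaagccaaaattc
Only Ifitm2 has a match, 1, in this window, and 2.98% of 32851 promoters of the same length have one. With the 50 bases after the start site included, which are not shown, Ifitm3 has 2 matches and Ifitm1 none, and 3.44% of promoters have one. A match is a description of letters and not a site of binding.

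The rise of the Ifitm genes lay in few barcodes. Ifitm2 UMIs were found in 61 of 780 anti-PD-1 barcodes (7.82%, against 6.26% and 3.82% in the PBS pair) and Ifitm3 UMIs in 91 (11.7%, against 6.49% and 8.76%), while 91.6% to 99.2% of macrophages had a UMI of either. Ifitm1 UMIs lay in 22 barcodes, 1 of which held 39.1% of them. Both ILC1-like NK cells, defined by the same rule with at least 2 UMIs of Itga1 and Cxcr6, and macrophages carried more. As CPM without TMM scaling, Ifitm2 was 289, 408, 795 and 487 in ILC1-like cells and 458, 506, 965 and 762 in C1q-positive macrophages of these libraries. A shallow ILC1-like cell can lack a UMI of Itga1 and Cxcr6. Of 18 ILC1 and TGF-beta imprinted genes tested in the members, 2 rose under anti-PD-1 (Tmem176a and Ly6a) and 1 in the combination (Ly6a). The list medians were 0.13 and 0.02, beside -0.01 over all genes in both comparisons. Gzmc stood at 4161 to 7078 CPM in ILC1-like and 147 to 1116 in conventional cells, so members without it were also tested. In barcodes with no Gzmc UMI (390, 395, 643 and 829 members) the change of Ifitm3 under anti-PD-1 was 2.07 (adjusted p 2.2e-15), that of Ifitm2 0.93 (adjusted p 0.109) and that of Ifitm1 0.39 (adjusted p 0.88). With the rule applied at 3000 UMIs all 3 passed, at 2.44, 2.39 and 3.10, while Ifitm3 in the combination did not (0.94, adjusted p 0.0684). Macrophage markers in the members stood at 103 CPM under anti-PD-1, inside the PBS range. Ifitm2 in the macrophages themselves was higher in that library (965 against 458 and 506 CPM in the PBS pair). The part that ILC1-like cells or free macrophage RNA had in the Ifitm values of the members was not tested further.

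Genes of the Ly6 family rose in both treated libraries. Ly6a, which encodes the interferon-inducible surface protein Sca-1, stood at 34.9, 32.1, 89.7 and 74.7 CPM. Its rises were 1.42 ± 0.19 and 1.16 ± 0.18 (adjusted p 4.86e-11 and 6e-07), and 1.65 in each comparison in barcodes with no Gzmc UMI. With the rule applied at 3000 UMIs the combination value was 0.85 (adjusted p 0.0684). Ly6c2, the gene of the surface marker Ly6C, stood at 134, 122, 273 and 198 CPM and rose by 1.09 ± 0.15 and 0.62 ± 0.15 (adjusted p 3.15e-10 and 0.0125), with treated values above both PBS libraries. At 3000 UMIs per barcode its changes were 0.48 and 0.29 and did not pass (adjusted p 0.252 and 0.944), and in barcodes of 3000 to 6000 UMIs the anti-PD-1 change was -0.09 (adjusted p 0.922). It shares 47.7% of its last 500 bases with Ly6c1. Of 27 type I interferon genes, only Ifi27l2a rose, from 28.4 and 34.6 CPM to 59.8 with anti-PD-1 and 53.8 with the combination (0.92 ± 0.21 and 0.77 ± 0.20, adjusted p 0.00256 and 0.0339). The median of that list was -0.03 and 0.04, close to that of all genes.

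Among 14 mature NK genes, 2 rose with anti-PD-1 and 0 with the combination, with list medians of 0.44 and 0.17. Cma1, the gene of a chymase, stood at 45.5 and 37.0 CPM in the PBS pair, 143 with anti-PD-1 and 48.3 with the combination. It rose by 1.80 ± 0.17 (adjusted p 3.96e-22). A single anti-PD-1 barcode held 26.7% of its 460 UMIs, and with barcodes of other lineages left out the rise was 0.81 (adjusted p 0.00956), smaller but still past the test. Lgals1, which encodes the glycan-binding protein galectin-1, stood at 1059, 904, 1800 and 1120 CPM and rose by 0.88 ± 0.23 (adjusted p 0.0187), but not at 3000 UMIs (0.67, adjusted p 0.261). S100a4, a calcium-binding protein gene of motile cells that was named after its values were seen, stood at 151, 85.8, 319 and 168 CPM (1.44 ± 0.16, adjusted p 3.9e-11), and did not pass with other-lineage barcodes left out (1.39, adjusted p 0.117). AA467197, likewise named after its values were seen, stood at 22.2, 14.5, 64.2 and 31.9 CPM (1.82 ± 0.23, adjusted p 1.33e-12), and at 0.63 (adjusted p 0.423) in barcodes with no Gzmc UMI. All 4 genes were highest under anti-PD-1, and each combination value was above both PBS values without passing the test.

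**Figure D3:**
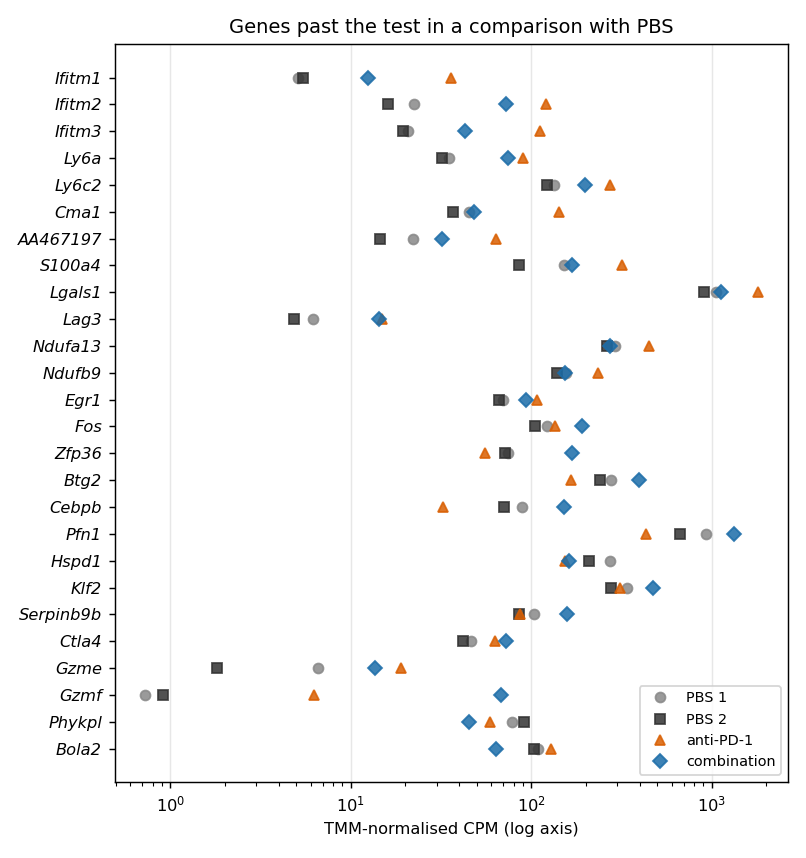
TMM-normalised CPM (log axis) in each library of 26 genes that passed the edgeR test in at least 1 comparison with PBS. The Ifitm genes, Cma1, S100a4 and Lgals1 are highest under anti-PD-1, whereas Zfp36, Btg2, Cebpb, Pfn1 and Gzmf are highest in the combination.

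Of 38 nuclear genes of the mitochondrial respiratory chain tested, 6 rose in the anti-PD-1 library: Ndufa13, Ndufb9, Uqcrq, Uqcr11, Cox6b1 and Cox7b, which encode subunits of complexes I, III and IV. The log2 fold change was positive for 36 of 38, most of which did not pass. The list median was 0.42, beside -0.01 over all genes. Ndufa13 stood at 292, 262, 447 and 273 CPM (0.69 ± 0.16, adjusted p 0.00411), and Ndufb9 at 156, 139, 235 and 154 CPM (0.67 ± 0.15, adjusted p 0.00242). In the combination 0 of 38 passed, 7 were positive and the median was -0.07. The anti-PD-1 members were also the shallowest, at a median of 3515.5 UMIs, so closer depths were compared. In barcodes with 3000 to 6000 UMIs the list median was 0.38, Ndufa13, Ndufb9 and Cox6b1 passed (adjusted p 0.00293, 0.0261 and 0.0403), and Uqcrq, Uqcr11 and Cox7b did not (adjusted p 0.073, 0.556 and 0.0536). With the rule applied at 3000 UMIs the median was 0.38, Ndufa13, Ndufb9 and Uqcrq passed (adjusted p 0.0135, 0.011 and 0.0309), and Uqcr11, Cox6b1 and Cox7b did not (adjusted p 0.421, 0.32 and 0.169). Also higher under anti-PD-1 were Psmb10, an immunoproteasome subunit gene (131, 132, 192 and 121 CPM, 0.55 ± 0.15, adjusted p 0.0279), and the glycolytic enzyme gene Gpi1 (81.5, 79.1, 125 and 83.2 CPM, 0.63 ± 0.16, adjusted p 0.0133).

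Several genes fell under anti-PD-1. Cebpb, which encodes a stress-responsive transcription factor, stood at 89.1 and 70.3 CPM in the PBS pair and 32.4 under anti-PD-1, a change of -1.29 ± 0.20 (adjusted p 6.3e-08). Pfn1, the gene of the actin-binding protein profilin, stood at 931, 666 and 433 CPM (-0.88 ± 0.23, adjusted p 0.0139). Btg2, an antiproliferative immediate early gene, stood at 278, 240 and 167 CPM (-0.63 ± 0.17, adjusted p 0.0186), and Hspd1, a mitochondrial chaperone gene, at 272, 209 and 154 CPM (-0.64 ± 0.16, adjusted p 0.00924). All 4 lay below both PBS libraries. The mitochondrially encoded mt-Nd6 stood at 106, 94.3 and 48.9 CPM (-1.03 ± 0.18, adjusted p 1.03e-05). Others among the 10 largest decreases were Zfp704, Arl4d, Pakap, Slc7a5, H2-M3, Pfdn2 and Phlda1, at -2.78 to -0.84. DESeq2 called 0 genes lower under anti-PD-1, so none of the decreases in this paragraph passed it.

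The largest increases under anti-PD-1 were of another kind. Tpsb2, Mcpt2, Mcpt4 and Cpa3, mast cell protease genes, had 110, 108, 38 and 104 UMIs in the anti-PD-1 members against at most 2 in either PBS library, and Fcer1a, the gene of the IgE receptor's alpha chain, had 16 against 0. Mast cell markers fixed as a list of 4 had 124 UMIs there, 87 of them in 1 barcode. Hs6st2 (21 UMIs), Ly6d (21), Aspn (19), Sdc2 (18) and Ccl7 (56) completed the 10 genes with the largest rise, all with at most 5 UMIs in either PBS library. Of the 138 genes that rose, 21 had at least 50% of their UMIs in 1 barcode and 111 had UMIs in 20 barcodes or more. Leaving out members with at least 3 UMIs of a mast cell, B cell, neutrophil or stromal marker list (446, 443, 774 and 942 barcodes remained) reduced the calls to 117, of which 115 were among the 169.

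In the combination the smallest adjusted p belonged to Gzmf, a granzyme gene of a cluster on chromosome 14. It had 2, 3, 20 and 360 UMIs, or 0.728, 0.909, 6.23 and 67.9 CPM. The combination was the highest library by far, and the anti-PD-1 value also lay above both PBS values. The changes were 6.30 ± 0.37 (adjusted p 4.97e-59) and 2.86 ± 0.61 (adjusted p 0.00128). Its UMIs lay in 35 of 952 combination barcodes, and 1 barcode held 48.3% of them; without that barcode the level was 35.4 CPM, not TMM-scaled. With barcodes carrying Gzmc left out, the change was 3.25 (adjusted p 0.113). With the rule applied at 3000 UMIs the rise was 5.03 with anti-PD-1 and 4.75 with the combination, so the order of the treated libraries depends on the rule. Gzme, its neighbour in the cluster, stood at 6.55, 1.82, 19.0 and 13.6 CPM and rose in both (2.24 ± 0.39 and 1.75 ± 0.38, adjusted p 5.64e-06 and 0.00277), in 12 and 16 barcodes; at 3000 UMIs it did not pass (adjusted p 0.32 and 0.762). Gzmc stood at 395, 142, 1176 and 336 CPM, the PBS pair differed widely, and neither change passed (adjusted p 0.791 and 1). Gzme shares 45.5% of its last 500 bases with other granzyme genes, chiefly Gzmd, and Gzmf 21.1%, chiefly with Gzmg.

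Immediate early genes, which respond within minutes to receptor signals and also to tissue handling, followed in the combination. Of 25 tested, 4 rose and 24 had a positive log2 fold change, with a median of 0.26 beside -0.01 over all genes. Zfp36, the gene of an RNA-binding protein that destabilises cytokine messages, stood at 74.6 and 71.5 CPM in the PBS pair, 55.8 with anti-PD-1 and 169 with the combination (1.21 ± 0.15, adjusted p 8.89e-12). Fos, a subunit gene of AP-1, stood at 122, 105, 135 and 191 CPM (0.75 ± 0.15, adjusted p 0.000309). Btg2 (396 CPM, 0.62 ± 0.15, adjusted p 0.0181) and Rhob, a small GTPase gene (107 CPM, 0.61 ± 0.16, adjusted p 0.0422), were the others. Cebpb was highest in the combination, at 152 CPM (0.93 ± 0.15, adjusted p 1.92e-06). Under anti-PD-1 the same list had 3 rising genes (Egr1, Fosb and Ier3), 1 falling (Btg2) and a median of -0.07. Egr1 stood at 69.8, 66.4, 108 and 94.0 CPM (0.67 ± 0.17 under anti-PD-1, adjusted p 0.0109). Of 16 heat shock genes, Hspa1a and Hspb1 rose in the combination, but 4 of 16 were positive and the median was -0.23. Hspa1a stood at 13.5, 3.64, 6.85 and 24.0 CPM (adjusted p 0.000758); 1 barcode held 73.8% of the 42 Hspb1 UMIs.

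Other rises in the combination were in single genes. Serpinb9b, a relative of the granzyme B inhibitor gene, stood at 103, 85.8, 86.6 and 157 CPM (0.73 ± 0.15, adjusted p 0.000822). Slc15a2, a peptide transporter gene, stood at 2.18, 11.2, 11.5 and 30.2 CPM (2.10 ± 0.31, adjusted p 6e-07), in 99 barcodes; without PBS 2 its change was 3.77, without PBS 1 it was 1.43, and with other-lineage barcodes left out it did not pass (2.09, adjusted p 0.122). Plac8, named like Serpinb9b after its values were seen, stood at 186, 183, 172 and 279 CPM (0.60 ± 0.15, adjusted p 0.0193). Among 26 cell cycle genes, Cenpa, the gene of the centromeric histone, rose from 38.6 and 49.7 to 73.2 CPM (0.72 ± 0.18, adjusted p 0.0223), while the list median was -0.25. The remaining large rises were in the B cell genes Igkc, Ebf1 and Ly6d (132, 81 and 40 UMIs) and in Tnfaip2, Sgms2, Slc7a11 and Hdc (57, 57, 65 and 73 UMIs in 9 to 17 barcodes). Neutrophil markers summed to 2.16, 31.1, 35.8 and 175 CPM in the members, with 398 of 919 combination UMIs in 1 barcode. With other-lineage barcodes left out, Igkc, Tnfaip2, Sgms2 and Slc7a11 had too few UMIs to test, Ebf1 and Hdc stood at -0.70 and -0.41 (adjusted p 0.988 and 0.995), and Ly6d still passed (adjusted p 0.0106).

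Fewer genes fell in the combination, 11 in all. Phykpl, which encodes a lysine-degrading enzyme, stood at 78.2, 91.2, 59.2 and 45.1 CPM (-0.91 ± 0.18, adjusted p 0.000295). Bola2, an iron-sulfur assembly gene, stood at 109, 103, 128 and 64.0 CPM (-0.73 ± 0.17, adjusted p 0.00533), and Polr2l, a subunit gene of RNA polymerases, at 37.5, 33.6, 41.4 and 17.0 CPM (-1.06 ± 0.24, adjusted p 0.00533). In each the combination was the lowest library. Cdh23, Snhg12, Gm20528, Gm16337, Hist1h4d and Insyn2b fell by 0.62 to 0.99 on the log2 scale.

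**Figure D4:**
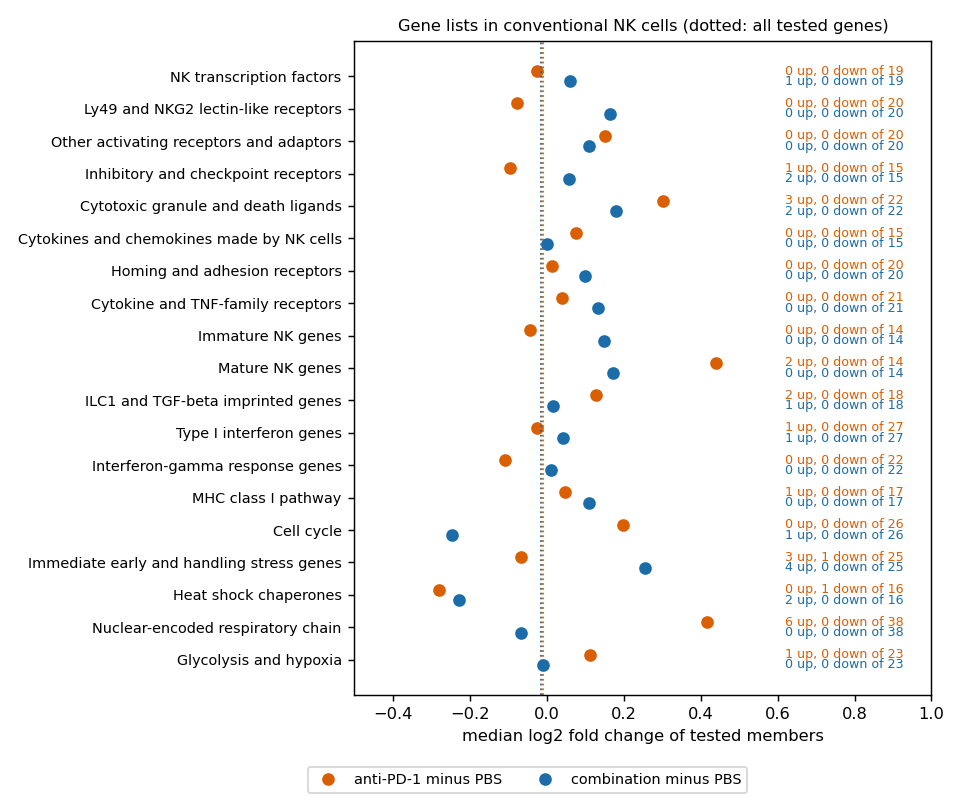
Median log2 fold change against PBS of the tested members of 19 gene lists, orange for anti-PD-1 and blue for the combination, with the number of genes past the edgeR test in each direction at the right. Dotted lines mark the median of all 11483 genes. The respiratory chain list stands at 0.42 and -0.07, and the immediate early list at -0.07 and 0.26.

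Between the treated libraries, 1.09% of genes (125) passed, 38 higher (0.331%) and 87 lower (0.758%) in the combination; DESeq2 called 0.105% (12). This compares the 2 libraries and not the treatments. Cebpb differed by 2.23 ± 0.21, Pfn1 (433 against 1330 CPM) by 1.62 ± 0.26, Zfp36 by 1.60 ± 0.19 and Btg2 by 1.25 ± 0.18, all higher in the combination. Cma1 (-1.57 ± 0.20), Ifitm3 (-1.39 ± 0.21) and S100a4 (-0.93 ± 0.19) were lower there, as were 8 of 38 respiratory chain genes (list median -0.51). Ly6a, Lag3 and Klrk1 did not pass between the treated libraries (adjusted p 0.692, 0.98 and 0.651).

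Compared with ILC1-like NK cells of the same libraries (211, 138, 277 and 297 barcodes, at median depths of 12406, 12726.5, 9679 and 10615 UMIs), conventional NK cells had higher levels of the chemokine genes Ccl3 and Ccl5. Levels are given as CPM without TMM scaling and as a description, since the rule divides the classes. Ccl5 was 5452, 4966, 7021 and 6804 in conventional and 706, 870, 458 and 765 in ILC1-like cells. Ccl3, Cma1, Cmklr1 (a chemerin receptor gene), Heatr9, Serpinb9b, Gm26740 and Itgam were also higher in conventional cells in all 4 libraries. Higher in ILC1-like cells in all 4 were Ifitm1, Ifitm2, Gzmc, Gzmd, Gzme, Igflr1, Sema6d and Cdh1, the gene of E-cadherin. Several genes that rose in treated conventional cells, Ifitm1, Ifitm2 and Gzme, are thus genes of higher level in ILC1-like cells.

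**Figure D5:**
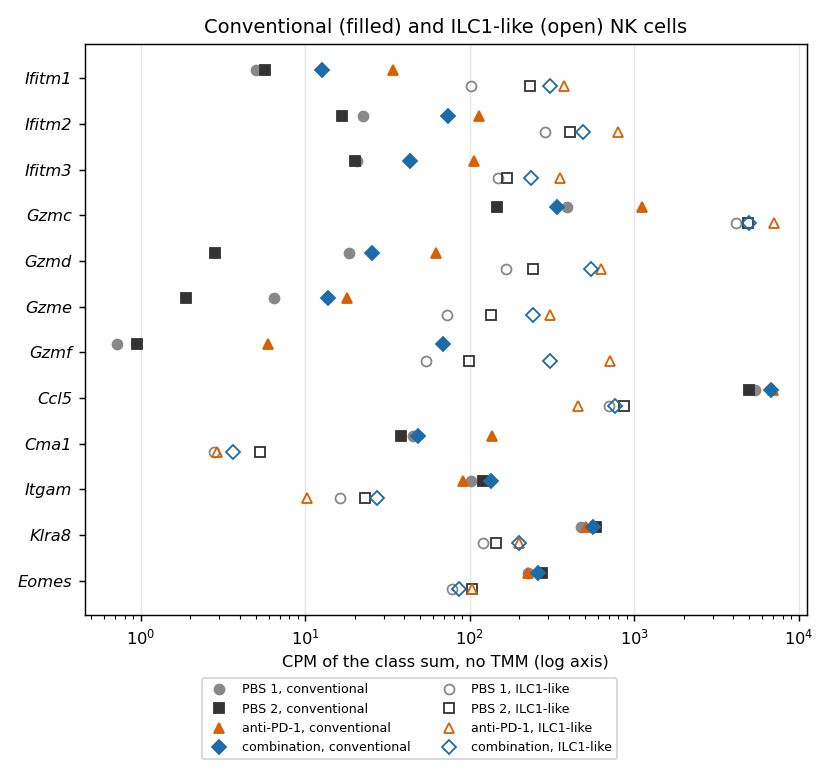
CPM without TMM scaling (log axis) of 12 genes in conventional (filled) and ILC1-like (open) NK cells, 1 point per library. Ifitm and granzyme C to F genes are higher in ILC1-like cells in every library, and Ccl5, Cma1, Itgam, Klra8 and Eomes in conventional cells.

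Whether the change against PBS differed between the classes as divided by the rule was tested with an interaction term. Of 11784 genes, 0.144% (17) passed for anti-PD-1, 15 with a more positive change in conventional cells (0.127%) and 2 with a more negative one (0.017%). For the combination 0.11% (13) passed, 8 more positive (0.0679%) and 5 more negative (0.0424%), and DESeq2 called 0 and 1. The rises of Ifitm1, Ifitm2, Ifitm3 and S100a4 under anti-PD-1 were larger in conventional than in ILC1-like cells by 1.49, 1.33, 1.18 and 1.15 on the log2 scale (adjusted p 0.00777, 0.0109, 0.000535 and 1.16e-05). In the combination the changes of Ifitm2 and S100a4 were more positive in conventional cells by 1.47 and 0.93 (adjusted p 0.00397 and 0.000796). S100a4 itself did not pass against PBS in conventional cells of the combination. DESeq2 called none of these Ifitm and S100a4 differences under anti-PD-1. The classes are divided by UMIs of Itga1 and Cxcr6, and the anti-PD-1 members were the shallowest (median 3515.5 UMIs). The part that ILC1-like cells counted as conventional had in these differences was not tested. The Gzmf change in the combination was larger by 4.36 ± 0.41 (adjusted p 1.3e-12), starting from 0.720 and 0.942 CPM in conventional and 53.8 and 99.2 CPM in ILC1-like cells. In the interaction test with thinned barcodes, this Gzmf difference did not pass (adjusted p 0.201). A single barcode held 48.3% of the Gzmf UMIs in conventional cells of the combination. For Klra8 the difference was -0.66 ± 0.16 under anti-PD-1 (adjusted p 0.0449), with 121, 143, 198 and 200 CPM in ILC1-like cells.

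Against CD8 T cells (1023, 908, 1591 and 2057 barcodes), 0.718% (103) and 0.766% (110) of 14353 genes passed, more positive in NK cells for 0.564% and 0.488% and more negative for 0.153% and 0.279%, and DESeq2 called 4 in each. Klf2 had a more positive change in conventional NK cells in the combination (1.05, adjusted p 1.87e-08), and so did Fos (0.81, adjusted p 0.000227) and Ly6c2 (0.52, adjusted p 0.0164). Such a difference does not give the direction of the change in T cells. Serpinb9b (-1.14, adjusted p 0.00521) and Plac8 (-0.55, adjusted p 0.00797) had a difference in the other direction, although both rose in NK cells. Under anti-PD-1, Ifitm3 (1.40, adjusted p 3.35e-06), Ifitm1 (1.16, adjusted p 0.0126), Egr1 (0.86, adjusted p 0.000533) and Ly6c2 (0.82, adjusted p 1.75e-05) had a more positive change in NK cells. In NK members of 3000 to 6000 UMIs, however, the Ly6c2 change against PBS was -0.09 under anti-PD-1. For Cebpb, Zfp36, Pfn1 and Ndufa13 no difference from T cells passed in either comparison (lowest adjusted p 0.971, 0.126, 0.291 and 0.511), which does not show that the responses were alike.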

How the data were processed

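Single-cell RNA was counted in 4 droplet libraries, 2 of PBS and 1 of each treatment. The deposited files hold raw UMI counts per gene and barcode, made with Cell Ranger 7.1.0 per the file headers, whereas version 3.0.2 and the build mm10 stand in the submitters' processing notes. The members and gene lists were chosen with earlier results of these data known. Barcodes with at least 1000 UMIs, 500 genes and under 10% mitochondrial UMIs were classed by the rule. No doublet caller was applied in the main analysis; leaving out high Scrublet scores was an alternative. UMIs were summed per library and tested with edgeR 4.0.16 (TMM, filterByExpr with a minimum of 10, robust quasi-likelihood fit, Benjamini-Hochberg adjustment over 11483 genes). With 1 residual degree of freedom, the spread was shared over all genes (biological coefficient of variation 9.74%). On simulated data with the anti-PD-1 depths, 47% of 2-fold and 83% of 4-fold changes were called over 11483 genes, with 5 false calls each. The simulation gave every gene and library the spread that the fit had estimated. It does not cover genes whose UMIs lie mostly in 1 barcode or whose PBS values lie far apart. Interactions between classes used library, class and class-by-group terms.

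Named genes were the markers, fixed NK genes, the 10 largest called changes in each direction of each comparison with PBS whose treated library lay outside the PBS pair, called genes of the lists, the 5 largest interactions in each direction, the 15 genes that varied most among members and, on each side, the 8 with the largest level difference from ILC1-like cells. Added after values were seen were Ifitm1, Ifitm3, Ly6c2, S100a4, AA467197, Plac8 and Serpinb9b among the changes. Intervals are exact Clopper-Pearson 95% intervals, and a count of 0 allows up to 3 counts. Alternatives were DESeq2 1.42.0, relative log expression (RLE) size factors, no low-count filter, thinned counts, other member rules and each PBS library left out. Applying the rule at 3000 UMIs, keeping members of 3000 to 6000 UMIs, leaving out other-lineage barcodes and keeping members without Gzmc were chosen after seeing the data. Promoters are from RefSeq (GRCm38.p6), and shared 31-base stretches were counted on GENCODE transcripts. Antisense and overlapping genes were not separated further. A gene that the naming rule picks among the decreases is not reported here.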

Additional observations from a re-analysis of the deposited data

Results flagged for a closer look

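Changes that differed between cell classes by the interaction test (edgeR, adjusted over all genes tested) are given as log2 differences, conventional NK cells minus the other class. Against ILC1-like cells under anti-PD-1 these were Klra8 (-0.66), Ifi204 (-1.61), Col3a1 (3.50), Dcn (5.15), Edil3 (5.5), Sema5a (6.49) and Olfr1369-ps1 (8.57). Col3a1 and Dcn are stromal genes, and 1 anti-PD-1 member held 70 of the 112 UMIs of the stroma markers. In ILC1-like cells PBS 1 and PBS 2 also stood apart, at 63.9 and 1.07 CPM for Dcn, 34.7 and 3.20 for Col3a1, 28.8 and 1.07 for Edil3, and 25.7 and 0.533 for Sema5a, so these differences rest in part on the ILC1-like cells of PBS 1. The change in conventional NK cells alone was 2.99, 2.55, 2.16 and 1.88 on the log2 scale. Against ILC1-like cells in the combination they were Gzmf (4.36), Hspb1 (5.68), Hmga2 (5.20, with 26.8 and 1.07 CPM in the ILC1-like cells of PBS 1 and PBS 2), Gng11 (2.07), Klra5 (1.77), Ifi207 (-4.58), Ccr7 (-4.49), Cxcl2 (-2.10), Etv6 (-0.82) and Rora (-0.69). In conventional cells of PBS 2, 1 barcode held 86.1% of the Cxcl2 UMIs and 1 held 50% of the Ccr7 UMIs. In those of the combination, 1 barcode held 73.8% of the Hspb1 UMIs. Of the differences from ILC1-like cells named here, DESeq2 called only that of Gzmf.

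Against CD8 T cells under anti-PD-1 the differences were Hs6st2 (13.68), Mmp25 (10.84), Ly6d (8.52), Cd200 (7.90), Syn3 (7.12), Olfr655 (-6.87), Areg (-3.94), Cabyr (-2.78), Gzmd (-2.32) and Serpine2 (-1.49). Against CD8 T cells in the combination they were Ly6d (9.40), Cd79a (8.06), Igkc (4.93), Gzmf (4.68), Fgf7 (3.79), Olfr655 (-5.22), Cma1 (-4.46), Aldoc (-4.33), Gzmd (-3.10) and Serpine2 (-1.88). Values far from 0 belong to genes with few UMIs in a class and depend on the prior count. DESeq2 called Gzmf in the combination against both classes (adjusted p 8.87e-05 and 5.01e-05). In the interaction test with thinned barcodes, Gzmf passed against CD8 T cells (adjusted p 0.0416) but not against ILC1-like cells (adjusted p 0.201). A single barcode held 48.3% of the Gzmf UMIs in conventional cells of the combination.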

How the results depend on the processing

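The counts of genes past the test, for anti-PD-1 against PBS, combination against PBS and combination against anti-PD-1, were 169, 46 and 125. They became 10, 3 and 12 with DESeq2, 14, 7 and 29 with barcodes thinned to 1000 UMIs, and 4, 2 and 0 with 1 UMI of Ncr1 or Klrb1c. They were 46, 19 and 72 with the rule at 3000 UMIs, and 85, 12 and 56 in members of 3000 to 6000 UMIs. The cause of these changes was not tested. The interaction counts against ILC1-like cells (17 and 13) became 0 and 1 with DESeq2, 28 and 24 with no low-count filter, and 3 and 1 with thinned barcodes. Those against CD8 T cells (103 and 110) became 4 and 4 with DESeq2 and 8 and 36 with thinned barcodes. The share of anti-PD-1 minus the PBS mean was -3.64 percentage points with 3 UMIs of Ncr1 and Klrb1c, and the combination minus the PBS mean 1.93 with barcodes thinned to 1000 UMIs. With either PBS library left out these differences ranged from -2.78 to 1.24 and from 3.98 to 8.0. Changes that turned direction were Pakap under anti-PD-1 (0.28) and Ly6c2 under anti-PD-1 (-0.0917) in members of 3000 to 6000 UMIs, Gzmf between the treated libraries with the rule at 3000 UMIs (-0.28), and Ifitm1 between them without Gzmc (0.77). Ebf1 under anti-PD-1 turned with thinned barcodes (-0.0302). Ebf1 (-0.70) and Hdc (-0.41) in the combination turned with high Scrublet scores or other-lineage barcodes left out, and Hdc under anti-PD-1 (-0.56) with the latter. Leaving out a PBS library left no residual degrees of freedom, so only values were given. No paired analysis was possible because each treated group has 1 library.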
